A study of Mus musculus with 4 samples.

Results

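The genes described here encode subunits of the KMT2 complexes, the Trithorax-type methyltransferases of histone H3 lysine 4 (H3K4). They were taken by symbol from the deposited expression table as Kmt2a, Kmt2b, Kmt2c, Kmt2d, Wdr5, Ash2l, Rbbp5, Dpy30, Pagr1a and Paxip1, and all 10 were found among its 22266 genes. All 10 had a mean of at least 1 TPM (a transcript's share of its library, corrected for length and scaled to a fixed total) over the 4 libraries, the filter that left 12029 genes for testing. Messenger RNA was measured by poly(A) sequencing in female mouse embryonic stem cells of the line PGK12.1, grown on gelatin in serum with leukemia inhibitory factor. In every library the cells carried Cbx2 with both alleles floxed and fused to HaloTag. The OHT libraries (n = 2, day 2, genotype labelled knockout) received 1.0 µM 4-hydroxytamoxifen for 48 hours, and the EtOH libraries (n = 2, day 0, genotype labelled wild type) received ethanol. All 4 libraries carry the same batch label. The recombinase is not named in the labels, a single cell line was used, and drug, time in culture and deletion cannot be told apart. Nothing in the labels says that each library had its own culture, so every p-value rests on a spread between samples that may be technical.

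KMT2 enzymes add methyl groups to H3K4 at promoters and enhancers and oppose silencing by Polycomb, the system to which CBX2 belongs. Each enzyme works on a shared core of WDR5, RBBP5, ASH2L and DPY30, which it needs for full activity. KMT2A and KMT2B act mainly at promoters and use menin, while KMT2C and KMT2D act mainly at enhancers and carry PAXIP1 and PAGR1.

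The comparison asks whether messages for these antagonists of Polycomb differed between cells treated to deplete CBX2 and controls. None of the 10 genes passed the threshold in either direction (limma adjusted p between 0.0995 and 0.996), where 0.0416% of all genes tested did, 0.00831% as higher and 0.0333% as lower. At an unadjusted p under 0.05 stood 1 of the 10, Pagr1a, which was lower, against 4.46% of all genes as lower, 6.02% as higher and 10.5% in either direction. Their median log2 fold change was -0.02, and that of all genes tested was 0.02. Pagr1a had a log2 fold change of -2.28, and that of its locus, summed over 3 overlapping gene models, was -0.04. Most of that sum is the row of Gm42742, which also has exons outside Pagr1a. In this bulk RNA, fewer cells of a type and less RNA per cell cannot be told apart.

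Cbx2 itself read 0.749 and 1.14 TPM in the OHT libraries, against 2.29 and 2.71 TPM in the EtOH libraries. Both OHT values lay below both EtOH values, in the direction of the labels, with a limma adjusted p of 0.265. The 8 stem cell markers fixed for this line ran from 150.2 to 7089 TPM. They summed to 12256 and 10989 TPM with OHT and to 9318 and 9261 TPM with EtOH. Dppa5a was the highest of them, at 7089 and 5623 TPM with OHT, against 4733 and 4612 TPM with EtOH. Groups did not overlap for 7 of the 8, all higher, against 23.1% of all genes tested as higher. Sox2 overlapped, and none of the 8 passed the threshold. The 7 fibroblast or feeder markers summed to 8.46 and 12.2 TPM with OHT and to 6.99 and 6.02 TPM with EtOH, mostly from Thy1, with Postn listed at 0 in all 4 libraries. The 6 primitive endoderm markers summed to 6.21 and 7.53 TPM with OHT and to 6.58 and 6.27 TPM with EtOH. The part of these markers in the results was not tested. Sequencing depth cannot be read from TPM and is unknown here.

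The 4 methyltransferase genes were expressed at low to moderate levels in both groups, and for all 4 the OHT and EtOH libraries overlapped. Kmt2a (GRCm38 chromosome 9, 44803355 to 44881296, minus strand) encodes the founding mammalian homologue of fly Trithorax. It read 3.84 and 8.85 TPM with OHT, against 3.45 and 4.65 TPM with EtOH. The upper OHT library lay above the rest, and the lower one lay inside the EtOH pair. Kmt2c (chromosome 5, 25271798 to 25498783, minus strand), which encodes an enhancer monomethyltransferase, read 14.2 and 22.9 TPM with OHT, against 13.1 and 15.9 TPM with EtOH. Here too a single OHT library stood above the EtOH pair while the other fell inside it.

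Kmt2b (chromosome 7, 30568858 to 30588726, minus strand), whose product is the main depositor of trimethylated H3K4 at bivalent promoters in mouse embryonic stem cells, read 20.8 and 33.5 TPM with OHT, against 27.4 and 28.7 TPM with EtOH. Kmt2d (chromosome 15, 98831669 to 98871204, minus strand), which encodes the closest relative of KMT2C, read 13.9 and 21.5 TPM with OHT, against 16.97 and 16.85 TPM with EtOH. For both genes OHT replicate 1 was the lowest library and OHT replicate 2 the highest. The spread between OHT replicates (SD 8.99 TPM for Kmt2b and 5.40 TPM for Kmt2d) exceeded that between EtOH replicates (SD 0.902 and 0.0871 TPM, n = 2 each).

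The limma log2 fold change was 0.46 for Kmt2a (SE 0.36, 95% interval -0.41 to 1.33, adjusted p = 0.723). It was 0.31 for Kmt2c (SE 0.25, interval -0.30 to 0.92, adjusted p = 0.736). Kmt2b, at -0.08 (SE 0.23, interval -0.65 to 0.48, adjusted p = 0.936), and Kmt2d, at 0.03 (SE 0.22, interval -0.52 to 0.58, adjusted p = 0.977), lay close to 0. The interval of Kmt2a was the widest of the 4. The values turned on single OHT libraries. Without OHT replicate 1 the log2 fold change was 0.97 for Kmt2a and 0.64 for Kmt2c. Without OHT replicate 2 it was -0.41 for Kmt2b. Such fits leave 1 OHT library and hold no spread between OHT replicates, so only effect sizes are given.

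**Figure D1:**
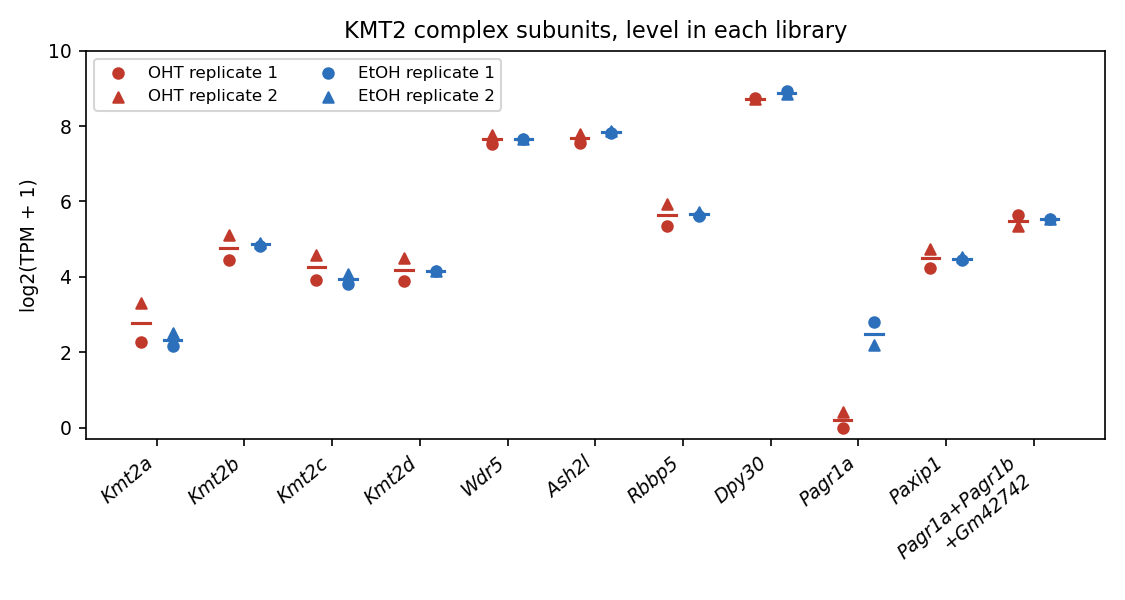
Level of each KMT2 subunit gene as log2(TPM + 1) in the 2 OHT libraries (red, left of each pair) and the 2 EtOH libraries (blue), with group means as lines; the last position sums Pagr1a, Pagr1b and Gm42742. The OHT replicates lie on either side of the EtOH pair for Kmt2b, Kmt2d, Wdr5, Rbbp5 and Paxip1, and Pagr1a alone among the single genes stands clear of its EtOH values by more than 1.5 log2 units.

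TPM is corrected for length, so levels of the 4 methyltransferase genes were set against each other within each library. The difference between the OHT libraries still moved with log2 transcript length (Pearson's r = 0.53 across 12016 genes). Kmt2b took the largest share of their summed TPM in every library and Kmt2a the smallest. Kmt2b made up 39.4% and 38.6% of the sum with OHT, against 45.0% and 43.4% with EtOH. Kmt2c made up 27.0% and 26.4% with OHT, against 21.5% and 24.02% with EtOH. The groups did not overlap for either gene, with Kmt2b taking a smaller share and Kmt2c a larger share in the OHT libraries. In TPM itself the groups overlapped for all 4 genes, and 42.4% of all genes tested did not overlap in either direction.

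Kmt2a made up 7.29% and 10.2% with OHT, against 5.67% and 7.04% with EtOH, again without overlap. Kmt2d made up 26.3% and 24.8% with OHT, against 27.9% and 25.5% with EtOH, and its groups overlapped. Mean shares differed by -5.18 percentage points for Kmt2b, 3.97 for Kmt2c, 2.39 for Kmt2a and -1.17 for Kmt2d (OHT minus EtOH). With 2 libraries a group no exact test could pass the threshold, and shares within a sum are tied to each other, so these differences are a description. After removal of each library's trend with transcript length and GC content, Kmt2b made up 37.5% and 40.6% with OHT and 44.0% and 44.1% with EtOH, and Kmt2c 28.2% and 26.5% with OHT and 21.3% and 23.1% with EtOH. The share of Kmt2a overlapped between groups under quantile normalization (7.11% and 9.85% with OHT, 5.87% and 7.22% with EtOH).

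**Figure D2:**
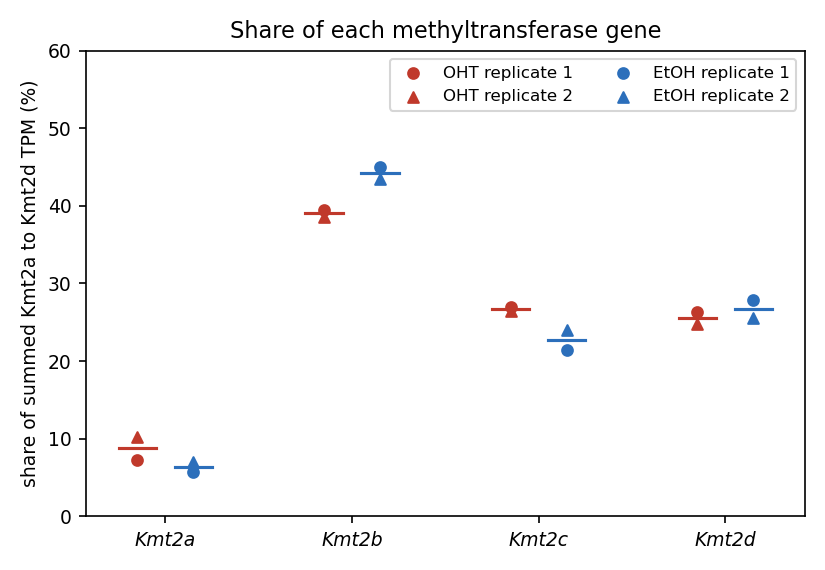
Share (%) of each methyltransferase gene in the summed TPM of Kmt2a, Kmt2b, Kmt2c and Kmt2d, per library, with OHT in red left of EtOH in blue and lines at group means. Kmt2b lies at 38.6% to 39.4% with OHT and at 43.4% to 45.0% with EtOH, and Kmt2c lies higher with OHT.

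The shared core genes were more abundant than the enzymes they serve. Dpy30 (chromosome 17, 74299474 to 74323944, minus strand), encoding the small dimeric subunit that docks on ASH2L, was the highest of the 10 in all libraries. It read 426 and 417 TPM with OHT, against 485 and 459 TPM with EtOH. Both OHT values lay below both EtOH values and the OHT pair was close together (SD 6.17 TPM with OHT, 18.2 TPM with EtOH). Ash2l (chromosome 8, 25815996 to 25847694, minus strand), which with RBBP5 activates the SET domain, read 188 and 219.9 TPM with OHT, against 225 and 233 TPM with EtOH. Its groups did not overlap either, although OHT replicate 2 lay close below the lower EtOH value.

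Groups did not overlap for 3 of the 10, all lower (Dpy30, Ash2l and Pagr1a), against 42.4% of all genes tested, 19.4% lower and 23.1% higher. The log2 fold change was -0.16 for Dpy30 (SE 0.08, interval -0.37 to 0.04, adjusted p = 0.564) and -0.17 for Ash2l (SE 0.11, interval -0.44 to 0.10, adjusted p = 0.664). With 1 OHT library left, the value was -0.18 for Dpy30 without OHT replicate 1. Without OHT replicate 2 it was -0.28 for Ash2l and -0.31 for Rbbp5. For Dpy30, which has the shortest transcript of the 10, the value with the length and GC trend removed was 0.02 (SE 0.06), so its direction depended on that step.

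Wdr5 (chromosome 2, 27515157 to 27536535, plus strand) encodes a propeller protein that binds the WIN motif of the enzymes. It read 184 and 218 TPM with OHT, against 203 and 201 TPM with EtOH. Rbbp5 (chromosome 1, 132477365 to 132505659, plus strand), the core subunit that contacts both the SET domain and ASH2L, read 39.8 and 60.1 TPM with OHT, against 47.6 and 51.7 TPM with EtOH. In both cases the OHT libraries lay on either side of the EtOH pair. The log2 fold changes were -0.01 for Wdr5 (SE 0.11, interval -0.29 to 0.26, adjusted p = 0.982) and -0.02 for Rbbp5 (SE 0.20, interval -0.52 to 0.48, adjusted p = 0.982).

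In order of mean TPM over the 4 libraries, Dpy30 (447) was followed by Ash2l (216), Wdr5 (201), Rbbp5 (49.8), Kmt2b (27.6), Paxip1 (21.6), Kmt2d (17.3), Kmt2c (16.5), Kmt2a (5.20) and Pagr1a (2.45). The ranges of neighbours overlapped between Ash2l and Wdr5, along the run from Kmt2b through Paxip1 and Kmt2d to Kmt2c, and between Kmt2a and Pagr1a. The ranges of the other neighbours did not overlap. Mean core TPM over mean methyltransferase TPM gave ratios of 15.9 and 10.5 with OHT, against 15.8 and 14.3 with EtOH. The low ratio of OHT replicate 2 came with a summed methyltransferase level of 86.8 TPM, while the other 3 libraries had 52.7 to 66.0 TPM.

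Paxip1 (chromosome 5, 27740080 to 27791691, minus strand) encodes PTIP, a BRCT-domain protein found in the KMT2C and KMT2D complexes and at sites of DNA damage. It read 17.9 and 25.6 TPM with OHT, against 20.7 and 22.1 TPM with EtOH, and the OHT libraries again bracketed the EtOH pair. Its log2 fold change was 0.00 (SE 0.20, interval -0.48 to 0.49, adjusted p = 0.996). Pagr1a (chromosome 7, 127015033 to 127017352, minus strand), encoding the PTIP partner PA1, had the largest fold change of the 10. It was listed at 0 and read 0.33 TPM with OHT, against 5.93 and 3.53 TPM with EtOH. Both OHT libraries lay far below both EtOH libraries, and the log2 fold change of -2.28 (SE 0.27, interval -2.93 to -1.63) had an unadjusted limma p of 1.38e-04 and an adjusted p of 0.0995. With OHT values this close to 0 the size of that fold is set by the pseudocount, and it was -4.49 at 0.1, -2.98 at 0.5 and -0.90 at 5.

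In the annotation used here, the Pagr1a row shares its exons with other rows of the table. The release behind the deposited values is unknown, and their identifiers carry other versions of Gm42742 and Pagr1b. In GENCODE mouse release 21 (GRCm38), Gm42742 (chromosome 7, 127015051 to 127021097, minus strand) and Pagr1b (127001480 to 127016484, minus strand) overlap Pagr1a on the same strand, so they are gene models of a single locus and not copies elsewhere. Of the 1430 exonic bases of Pagr1a, 1412 are also exonic in Gm42742. In Pagr1b 347 of them are exonic, and it continues for 346 bases inside Mvp. Those 1412 bases are 31.3% of the 4508 exonic bases of Gm42742, whose transcripts include a retained intron and processed transcripts. The Pagr1b transcript is annotated as nonsense-mediated decay. The main coding transcripts of Pagr1a and Gm42742 start at the same base and differ only in 18 bases at the 3′ end of the Pagr1a transcript. The coding sequence of 762 bases is identical in both, and its last 325 bases are in Pagr1b too. Coding bases 301 to 600, counted from the start codon, are shown because they span that border, with the 163 bases also in Pagr1b in capitals. In the last 28 bases of the Pagr1a transcript, capitals mark the 18 bases missing from Gm42742. Both are given 5′ to 3′ from the GENCODE transcripts.
Pagr1a and Gm42742 coding bases: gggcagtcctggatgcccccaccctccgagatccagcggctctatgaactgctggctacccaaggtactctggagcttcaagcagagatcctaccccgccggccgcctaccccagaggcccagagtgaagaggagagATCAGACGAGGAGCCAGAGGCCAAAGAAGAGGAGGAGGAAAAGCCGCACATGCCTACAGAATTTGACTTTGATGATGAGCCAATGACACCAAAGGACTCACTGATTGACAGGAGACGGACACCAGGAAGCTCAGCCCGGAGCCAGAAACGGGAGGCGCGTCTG
Pagr1a transcript end: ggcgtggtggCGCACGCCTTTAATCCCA

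Gm42742 read 48.5 and 37.9 TPM with OHT, against 37.7 and 40.6 TPM with EtOH. Pagr1b read 0.784 and 1.17 TPM with OHT, against 1.98 and 1.11 TPM with EtOH. Neither row separated the groups (log2 fold change 0.13, SE 0.16, adjusted p = 0.829 for Gm42742; -0.35, SE 0.23, adjusted p = 0.667 for Pagr1b). Pagr1a took 0% and 0.844% of the summed TPM of the locus with OHT, against 13.0% and 7.82% with EtOH, and Gm42742 took 98.4% and 96.2% with OHT, against 82.7% and 89.7% with EtOH.

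Summed over the 3 rows, the locus read 49.3 and 39.4 TPM with OHT, against 45.6 and 45.2 TPM with EtOH. The OHT libraries lay on either side of the EtOH pair. When the 3 rows were replaced by their sum and all genes refitted, the log2 fold change was -0.04 (SE 0.15, interval -0.40 to 0.31, adjusted p = 0.952). The sum was 0.12 without OHT replicate 2 and -0.20 without OHT replicate 1, neither past the threshold. The value of the Pagr1a row alone is therefore uncertain. It passed as lower without OHT replicate 1 (-2.07, where 6.43% of all genes passed as lower), without OHT replicate 2 (-2.49, where 15.8% did), without EtOH replicate 1 (-1.97, where 0.232% of all genes passed as lower and 0.124% as higher), without EtOH replicate 2 (-2.58, where 0.166% passed as lower and 0.0830% as higher) and with a replicate block (where 1.77% passed as lower and 2.17% as higher). In level the summed locus overlapped Rbbp5 and lay above Kmt2b in every library.

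**Figure D3:**
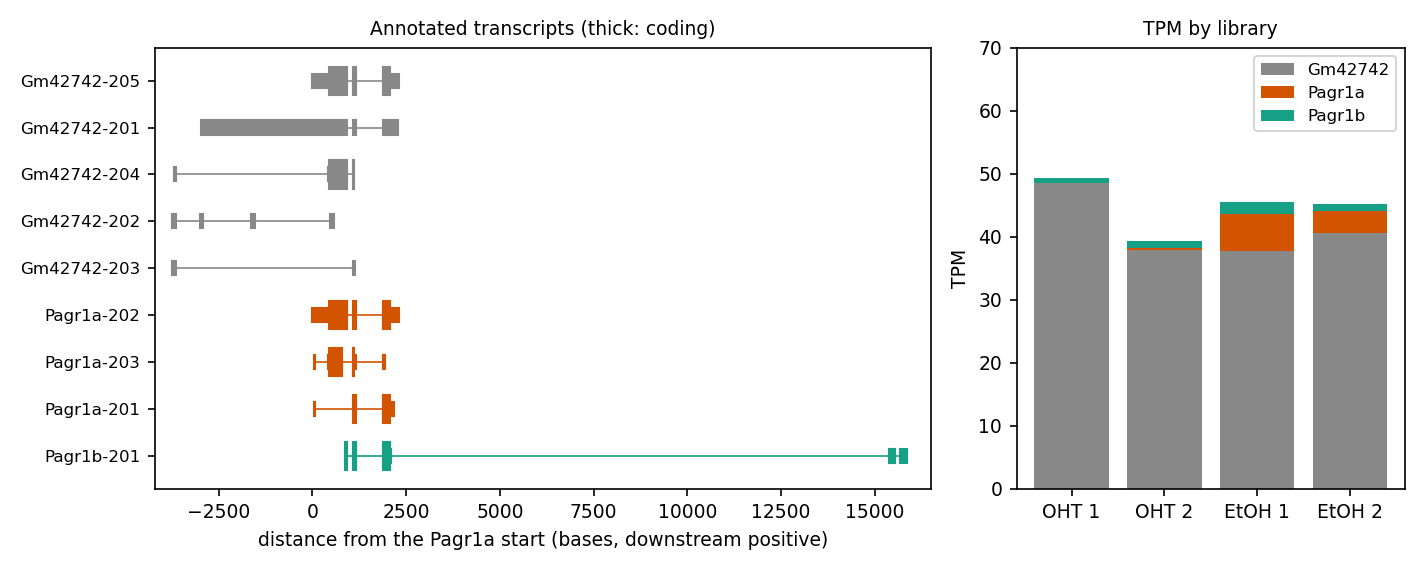
Left, annotated transcripts of Gm42742 (grey), Pagr1a (orange) and Pagr1b (green) by distance in bases from the Pagr1a start, with thick blocks for coding parts. Right, TPM of the 3 rows stacked per library, with OHT left of EtOH: the total is 49.3 and 39.4 TPM with OHT and 45.6 and 45.2 TPM with EtOH, and the orange part is nearly gone with OHT.

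**Figure D4:**
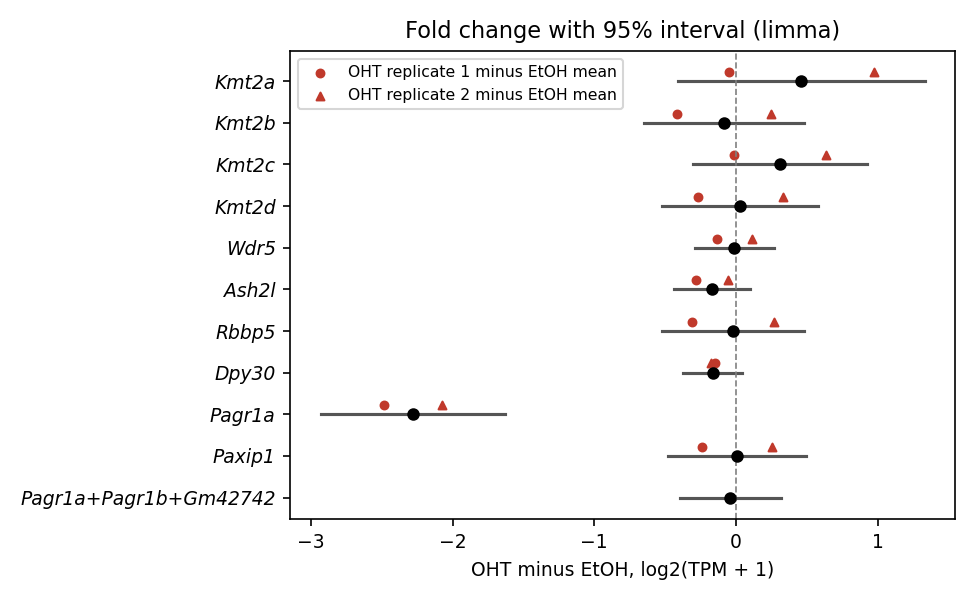
Fold change of each gene (black, OHT minus EtOH on the log2(TPM + 1) scale) with limma's 95% interval, and each OHT replicate against the EtOH mean (red). The intervals of all single genes but Pagr1a include 0, as does that of the summed Pagr1 locus.

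The median difference between OHT libraries (replicate 2 minus replicate 1) was 0.54 over the 10 genes and 0.23 over all genes, and that between EtOH libraries 0.06 and 0.04. OHT replicate 2 read above OHT replicate 1 for 9 of the 10 genes, all but Dpy30, and for 9159 of all 12029 genes tested. For 5 of the 10 (Kmt2b, Kmt2d, Wdr5, Rbbp5 and Paxip1), OHT replicate 1 lay below and OHT replicate 2 above both EtOH libraries, a pattern that 30.0% of all genes tested also showed. Against the EtOH mean, OHT replicate 1 had a median of -0.26 over the 10 and of -0.09 over all genes, and OHT replicate 2 had 0.25 over the 10 and 0.14 over all genes.

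The OHT gap moved with transcript length. It was 1.02 for Kmt2a (longest transcript 16470 bases), 0.65 for Kmt2c (14967 bases), 0.60 for Kmt2d (19823 bases) and 0.66 for Kmt2b (8469 bases), on the log2(TPM + 1) scale. It was 0.49 for Paxip1 (5850 bases), 0.23 for Ash2l (3702 bases), 0.58 for Rbbp5 (3385 bases), 0.25 for Wdr5 (2890 bases) and -0.03 for Dpy30 (789 bases). Across these 9 genes, which share their libraries, Pearson's r with log2 length was 0.86 and Spearman's rho 0.80. Across 12016 genes, which are not independent replicates, r was 0.53 and rho 0.58.

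The EtOH gap (replicate 2 minus replicate 1) of the 9 genes ran from -0.08 for Dpy30 to 0.34 for Kmt2a, and it was -0.01 for Kmt2d, the longest. With log2 length it had r = 0.63 and rho = 0.42 across the 9 genes, and r = 0.27 and rho = 0.36 across the 12016 genes. With the length and GC trend of each library removed, the median OHT gap of the 9 genes was 0.06 (range -0.12 to 0.35), against 0.58 as deposited. In that fit Pagr1a passed as lower (-2.36, SE 0.26, adjusted p = 0.0358), where 0.499% of all genes did and 0.657% passed as higher, and the other 9 did not pass. Groups did not overlap for 8 of the 10, 2 higher and 6 lower, against 55.4% of all genes in either direction. Kmt2a (0.28, SE 0.15, adjusted p = 0.337) and Kmt2c (0.17, SE 0.08, adjusted p = 0.289) were higher. Kmt2b (-0.28, SE 0.09, adjusted p = 0.170) and Kmt2d (-0.24, SE 0.10, adjusted p = 0.240) were lower. So were Ash2l (-0.14, SE 0.06), Paxip1 (-0.09, SE 0.08), Wdr5 (-0.05, SE 0.06) and Pagr1a. A gap that follows the fitted trend shrinks by construction in this step, which takes length and GC content together. The part of length in the deposited differences was not tested.

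**Figure D5:**
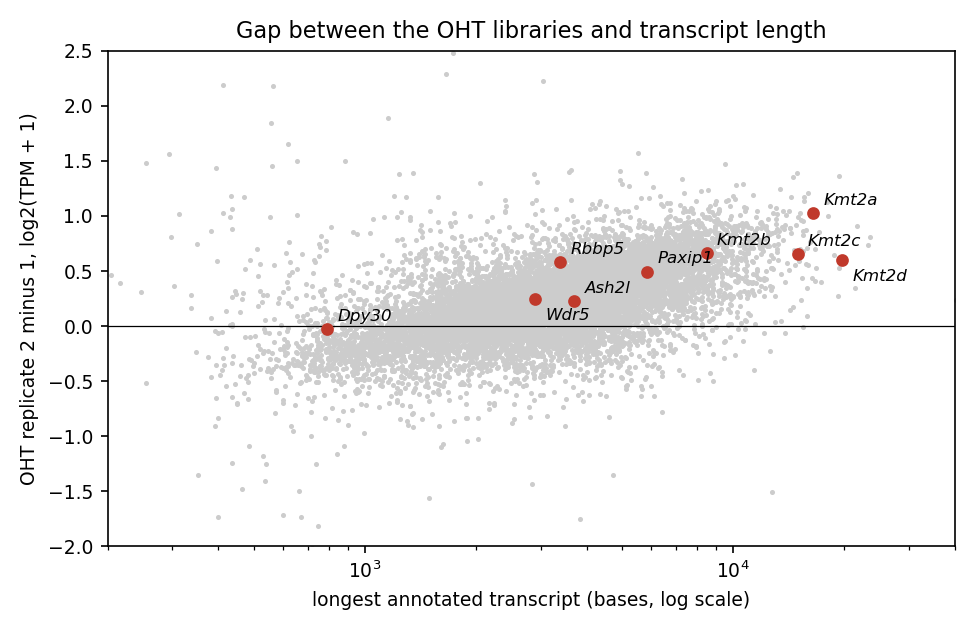
Difference between the OHT replicates (2 minus 1, log2(TPM + 1)) against the longest annotated transcript (bases, log axis) for all genes tested (grey) and 9 KMT2 genes (red); 17 of 12016 points lie outside the axes. The long methyltransferase transcripts lie at 0.60 to 1.02 and Dpy30 at -0.03.

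Among genes outside the 10, the centred log2(TPM + 1) profile over the 4 libraries nearest to the mean of the methyltransferase genes belonged to Ralgapa2 (Euclidean distance 0.0173), Zbtb18 (0.0178), a zinc finger repressor, and Bcl9 (0.0241), a Wnt coactivator. Nearest to the mean of the core genes were Wdr92 (0.0045), Nop2 (0.0073), a nucleolar RNA methyltransferase, and Ppp2ca (0.0104), a phosphatase catalytic subunit. Over only 4 libraries this is a description of profiles.

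A further 20 genes stood on 4 lists: KMT2 partners, SETD1 complexes, H3K4 demethylases and other Trithorax-related SET genes. All were tested and none passed in either direction, against 0.0416% of all genes. At an unadjusted p under 0.05 stood 1 of the 20, which was higher, against 10.5% of all genes in either direction and 6.02% as higher. The count of 0 turned on single OHT libraries, since the fits that leave 1 OHT library gave other counts. The median log2 fold change of the 20 was 0.08. Among the 6 KMT2 partners, that 1 was Hcfc2, whose product is a paralogue of the scaffold HCF-1. It read 6.49 and 7.68 TPM with OHT, against 4.53 and 4.30 TPM with EtOH (log2 fold change 0.57, SE 0.18, adjusted p = 0.369). The OHT pair lay wholly above the EtOH pair. Men1, encoding menin, read 37.1 and 44.6 TPM with OHT, against 37.8 and 38.1 TPM with EtOH, and its groups overlapped.

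Kdm6a, encoding the H3K27 demethylase UTX of the KMT2C and KMT2D complexes, read 39.1 and 68.0 TPM with OHT, against 51.3 and 59.5 TPM with EtOH, with the OHT libraries on either side. Psip1, whose product tethers menin to chromatin, read 174 and 173 TPM with OHT, against 169 and 177 TPM with EtOH. Hcfc1 (-0.11, SE 0.19) and Ncoa6 (0.29, SE 0.27) completed that list, with overlapping groups.

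The 6 genes of the SETD1 complexes, which place most trimethylated H3K4, had log2 fold changes from -0.14 to 0.31, all with overlapping groups. Setd1a read 25.7 and 40.2 TPM with OHT, against 28.6 and 31.8 TPM with EtOH. Setd1b read 7.49 and 15.4 TPM with OHT, against 9.45 and 11.6 TPM with EtOH. In both, OHT replicate 1 was the lowest and OHT replicate 2 the highest library.

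Among the 5 H3K4 demethylase genes the log2 fold change ran from -0.13 to 0.27. Kdm1a, encoding LSD1, read 164 and 193 TPM with OHT, against 154 and 162 TPM with EtOH (0.18, SE 0.11, adjusted p = 0.661). Kdm1b, its paralogue, read 10.4 and 11.6 TPM with OHT, against 9.15 and 8.71 TPM with EtOH (0.27, SE 0.17, adjusted p = 0.646). In both, the OHT libraries lay above the EtOH libraries. Kdm5a, Kdm5b and Kdm5c overlapped. The 3 other Trithorax-related SET genes, Ash1l (0.08, SE 0.32), Kmt2e (0.25, SE 0.25) and Setd7 (0.42, SE 0.23), did not pass either. Groups did not overlap for 4 of the 20, all higher, against 23.1% of all genes in that direction.

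Promoters were examined because KMT2A and KMT2B bind unmethylated CpG through a CXXC domain. RefSeq promoter sequences (GRCm38.p6) matched 8 of the 10 genes. Over the 250 bases before the outermost listed start, the motif CG, whose reverse complement is CG too, was counted. At least 1 match was held by 91.7% of all 27026 promoters, with a median of 6. The 8 genes had a median of 17, from 1 for Dpy30 to 48 for Kmt2c. Dpy30 has 4 listed starts, and the 3 inner ones had 21, 28 and 34.

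Kmt2a (29), Kmt2d (26) and Paxip1 (22) lay above the median of the 8, and Wdr5 (12), Rbbp5 (10) and Pagr1a (8) below it. At least as many as in Kmt2c were found in 0.174% of promoters. The Kmt2c sequence is shown as the most CpG-dense of the 8, from chr5:25498784-25499033 on the minus strand, 5′ to 3′, with each CG in capitals. These counts describe the sequence and were not related to the expression values.
Kmt2c promoter: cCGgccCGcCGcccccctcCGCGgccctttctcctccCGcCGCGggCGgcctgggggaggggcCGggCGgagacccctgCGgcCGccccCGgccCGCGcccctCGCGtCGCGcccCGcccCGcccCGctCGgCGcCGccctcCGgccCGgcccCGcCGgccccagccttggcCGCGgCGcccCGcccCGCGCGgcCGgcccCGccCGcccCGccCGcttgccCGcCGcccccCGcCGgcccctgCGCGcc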

How the data were processed

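Poly(A) RNA was made into libraries with NEBNext kits, per the labels' protocols; strandedness is not stated there. The deposited values are TPM, which the authors made using Trim Galore and Salmon among other steps, on GRCm38 (mm10), as the submitters' processing notes list; the sources used here give no version, annotation release or way of summing transcripts to genes. Each library sums to 1000000. A further 2 value columns could not be matched to a sample and were left aside. TPM keeps no depth, so no counting interval was computed.

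Values were analysed as log2(TPM + 1), which understates changes of low genes. Genes averaging 1 TPM or more over the 4 libraries were fitted with limma 3.58.1 in R 4.3.3 (mean-variance trend, two-sided, Benjamini-Hochberg adjustment over 12029 genes, threshold 0.05, residual degrees of freedom 2, prior 4.01). The fit was tested on simulated data with independent noise of equal spread in both groups. That setting lacks the length-linked gap and the wider OHT spread of these libraries, so it does not show their effect. SD is over 2 libraries, SE is limma's. The 10 genes and the lists were chosen with earlier results of these data known. All 10, Cbx2, the Pagr1 rows, every list gene and the 3 genes nearest in profile to each of 2 subunit groups could be named, leaving out predicted gene models among the last. GENCODE mouse release 21 gave coordinates, lengths and GC content; 22213 identifiers matched it without version and 11 with it. Near-identical transcripts were sought with blastn 2.17.0 (95% identity over 50% of the shorter transcript). Apart from the Pagr1 rows, none of the matches found for the 10 genes (to Ash2l, Kmt2d and Rbbp5) stood in the table. Kmt2a and Kmt2c overlap other annotated genes, on both strands. Plots used matplotlib 3.10.9.

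Alternatives were pseudocounts of 0.1, 0.5 and 5, no filter or one at 5 TPM, scaling by median of ratios or by quantiles, limma with no trend or with robust moderation, a replicate block, removal of each library's loess trend with length and GC content, and leaving out each library.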

Additional observations from a re-analysis of the deposited data

How the results depend on the processing

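None of the 10 KMT2 genes passed under any of the 3 other pseudocounts, without a filter on low values, at a minimum of 5 TPM (where Pagr1a was not tested), under either scaling, without a trend or with robust moderation. Over all genes, where 1 passed as higher and 4 as lower, 2 were higher at a pseudocount of 0.1, and 0 were higher and 0 lower without a filter on low values (1838 at an unadjusted p under 0.05). The higher count was 0 under median of ratios scaling, quantile normalization and no trend. With the length and GC trend removed, 79 were higher and 60 lower, with 1 of the 10, Pagr1a, among them. The difference in Kmt2a share between groups (2.39 percentage points) ran from 0.93 without OHT replicate 2 to 3.84 without OHT replicate 1. Replicate SDs of that share were 2.06 points with OHT and 0.97 points with EtOH. The difference in the ratio of core to methyltransferase genes (-1.83) was -4.49 without OHT replicate 1. It changed sign with the trend removed (0.78) and without OHT replicate 2 (0.83). Replicate SDs of the ratio were 3.77 with OHT and 1.03 with EtOH. Median of ratios scaling leaves both unchanged by construction.

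The replicate numbers are not said to mark a shared culture or day, and the deviations of same-numbered libraries correlated at r = 0.29 over genes. With the replicate block 261 genes were higher and 213 lower, with 1 of the 10, Pagr1a, lower (limma adjusted p = 2.15e-24). That fit leaves 1 residual degree of freedom, so its p-values rest on variance that limma borrows from other genes.

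Leaving out a library, genes higher ranged from 10 to 2330 and genes lower from 20 to 1881, KMT2 genes higher from 0 to 2 and lower from 1 to 4, and genes of the 4 pathway lists higher from 0 to 10 and lower from 0 to 4. Where an OHT library is left out, the other is taken to vary as the EtOH pair does. The Pagr1 sum ranged from -0.20 to 0.12 and the median of the 10 from -0.26 to 0.25. Directions of small changes turned. Under median of ratios scaling Kmt2d (-0.0075) and Paxip1 (-0.032) did, under quantile normalization Kmt2d (-0.018), Paxip1 (-0.023) and Wdr5 (0.048), and with the trend removed Kmt2d (-0.24), Paxip1 (-0.094) and Dpy30 (0.021). Leaving out a library, the log2 fold change ranged from -0.051 to 0.97 for Kmt2a, -0.41 to 0.25 for Kmt2b, -0.017 to 0.64 for Kmt2c, -0.27 to 0.33 for Kmt2d, -0.14 to 0.11 for Wdr5, -0.31 to 0.27 for Rbbp5 and -0.24 to 0.25 for Paxip1. Each of these 7 ranges has its ends in the fits without an OHT library. Paxip1 turned without EtOH replicate 1 and Rbbp5 without EtOH replicate 2 as well. Leaving out a library shows which library a value depends on, and the cause of these turns was not tested. Depth is unknown, so what it limits could not be assessed.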
